A study of Mus musculus with 6 samples.

Results

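The creatine and adenylate energy buffering genes are 9 of the 54532 Ensembl genes in the count table, and they were chosen by name, through the Ensembl IDs that GENCODE M21 pairs with their symbols. They comprise the creatine kinases *Ckm*, *Ckmt2* and *Ckb*, the creatine transporter *Slc6a8*, the creatine-synthesizing methyltransferase *Gamt*, the adenylate kinases *Ak1* and *Ak4*, and the ADP/ATP carriers *Slc25a4* and *Slc25a5*. Their poly-A nuclear RNA was counted in cardiomyocyte (CM) nuclei of wildtype ICR mice. Every animal received 1e+11 genomes of AAV9 under the skin at 6 d of age, and hearts were taken at 9 d of age, 3 d later. The virus carried GFP (control), YAP6SA or YAP5SA behind the cTnT promoter, which is active in CMs. YAP5SA is a form of the transcriptional coactivator YAP in which serines that the Hippo kinases phosphorylate are replaced by alanine, and YAP6SA has a further such change that disrupts the contact with TEAD transcription factors. There were 2 hearts for each virus and 2 libraries in each of the 3 groups, 1 from each of 2 batches, but the labels do not say whether each library came from 1 heart, so p-values measure the spread between these libraries, which may be technical. The comparisons ask how far each active form of YAP moves these genes away from the GFP control. The study also reports less YAP6SA than YAP5SA in the nucleus and more in the cytoplasm. That difference and the loss of TEAD contact cannot be told apart here.

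Heart muscle uses ATP faster than it can be stored, and 2 linked enzyme systems hold its level steady. Creatine kinases move phosphate between ATP and creatine, with the mitochondrial form charging creatine where ATP is made and the cytosolic forms recovering ATP where it is spent. Adenylate kinases turn ADP back into ATP and AMP, and the ADP/ATP carriers exchange both nucleotides across the inner mitochondrial membrane. As CMs mature, the brain-type cytosolic creatine kinase *Ckb* gives way to the muscle-type enzyme *Ckm*, and the mitochondrial form *Ckmt2* increases.

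Promoters are shown for both cytosolic creatine kinases, for the mitochondrial form and for *Slc25a5*, because these sequences hold the letters searched and their genes differ in response. Each is the RefSeq window of GRCm38.p6 from 250 bases before to 50 bases after a start, written 5′ to 3′ on the strand of the gene. *Ckb* lies at chr12:111672289-111672588 on the minus strand, *Slc25a5* at chrX:36795347-36795646 on the plus strand, *Ckmt2* at chr13:91876836-91877135 on the minus strand and *Ckm* at chr7:19410844-19411143 on the plus strand. Capitals mark the TEAD core in the first pair and the E-box in the second.

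Ckb: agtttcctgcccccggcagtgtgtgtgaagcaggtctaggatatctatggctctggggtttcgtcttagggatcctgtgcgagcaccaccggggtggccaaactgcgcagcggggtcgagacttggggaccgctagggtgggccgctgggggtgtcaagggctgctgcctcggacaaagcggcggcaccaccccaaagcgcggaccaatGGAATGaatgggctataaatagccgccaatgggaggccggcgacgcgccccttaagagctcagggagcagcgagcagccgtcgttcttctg
Slc25a5: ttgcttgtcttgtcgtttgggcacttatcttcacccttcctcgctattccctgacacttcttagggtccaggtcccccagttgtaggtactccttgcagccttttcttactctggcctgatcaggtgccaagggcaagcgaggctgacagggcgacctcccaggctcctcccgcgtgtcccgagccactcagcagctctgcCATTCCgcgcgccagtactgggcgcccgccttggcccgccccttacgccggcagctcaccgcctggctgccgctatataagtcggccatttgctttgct
Ckmt2: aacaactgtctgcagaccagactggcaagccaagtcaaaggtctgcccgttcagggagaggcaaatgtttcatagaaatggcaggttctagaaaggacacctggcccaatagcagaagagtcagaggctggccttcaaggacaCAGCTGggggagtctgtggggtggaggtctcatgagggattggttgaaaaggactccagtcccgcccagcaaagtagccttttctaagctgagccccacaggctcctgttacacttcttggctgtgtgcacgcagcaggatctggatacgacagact
Ckm: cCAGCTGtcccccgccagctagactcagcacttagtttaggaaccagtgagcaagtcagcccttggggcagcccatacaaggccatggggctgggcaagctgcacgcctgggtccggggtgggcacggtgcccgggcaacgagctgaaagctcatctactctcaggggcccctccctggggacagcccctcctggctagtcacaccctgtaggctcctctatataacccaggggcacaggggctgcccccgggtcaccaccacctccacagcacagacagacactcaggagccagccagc

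4 motifs were searched on both strands: the TEAD core GGAATG, the E-box CAGCTG, the site AAGGTCA of estrogen-related receptors, and the CArG box by its name. The TEAD core stands 41 bases before the start of *Ckb* and 49 bases before that of *Slc25a5*, where it is on the opposite strand. It is present in 14.7% of all 32851 promoter windows. The E-box, found in 16.3% of windows, stands 249 bases before the start of *Ckm* and 107 bases before that of *Ckmt2*, and it occurs in a pair of the 4 windows of *Ak1*. The receptor site, held by 4.72% of windows, occurs in another *Ak1* window, and the CArG box, in 1.63% of windows, in none of the members. The marked motifs do not overlap each other, the windows of *Gamt*, *Ak4* and *Slc25a4* hold none of the 4, and *Slc6a8* was not matched in the table. A match is a run of letters and not a measured binding site.

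Levels are given as CPM, the count of a gene scaled to the depth of its library. The libraries held 14552847 to 19615627 reads on genes, and the 9 members together took 0.199% to 0.311% of them. *Yap1*, whose variants were delivered, had a log2 fold change against GFP of -0.09 in YAP6SA and -0.17 in YAP5SA CMs (edgeR quasi-likelihood FDR 0.952 and 0.495), so the overexpression is not seen in these counts, and whether vector reads were counted on *Yap1* was not tested. All 8 CM markers listed were detected in all 6 libraries, with *Tnnt2* and *Myh6* the most abundant. All 9 members passed the filter on low counts (median log2 CPM above 1 in at least 1 group) and were tested among 13323 genes.

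In GFP CMs, levels compared per kilobase of exon (RPKM, the CPM divided by exon length) spread widely among the members. Exon length merges all annotated transcripts of a gene, so levels compared between genes depend on that choice. *Slc25a4* stood highest at 388 ± 18.9 RPKM (SD, n = 2), followed by *Ckmt2* at 329 ± 57.8, *Ak1* at 106 ± 3.73 and *Slc25a5* at 94.3 ± 0.0938. *Ckb* at 54.1 ± 6.83 and *Slc6a8* at 49.8 ± 6.44 came next and overlapped each other. *Ckm* followed at 19.0 ± 2.74, *Gamt* at 4.09 ± 0.602 and *Ak4* at 0.615 ± 0.00520. *Ckb* and *Slc6a8* were the only neighbours in this order whose libraries overlapped, and the mitochondrial members *Slc25a4* and *Ckmt2* lay above 99.7% and 99.6% of the genes tested. In YAP6SA CMs the order was the same except that *Slc25a5* and *Ak1*, which overlapped there, changed places. In YAP5SA CMs *Ckb* came next after *Ckmt2*, above *Slc25a5* and *Ak1*, and no neighbours overlapped.

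The level of *Ckm* in this order is uncertain. The noncoding gene *A930016O22Rik* lies antisense to *Ckm* and shares 451 exon bases with it, which is 36.5% of the 1235 bases of the transcript Ckm-201 and touches 3 of its 7 exons. The libraries do not keep strand, and reads that touch both genes were set aside as ambiguous by the authors' counting, so the level of *Ckm* against other genes is not interpreted, and reads of *Ckm* and its antisense partner cannot be told apart.

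**Figure D1:**
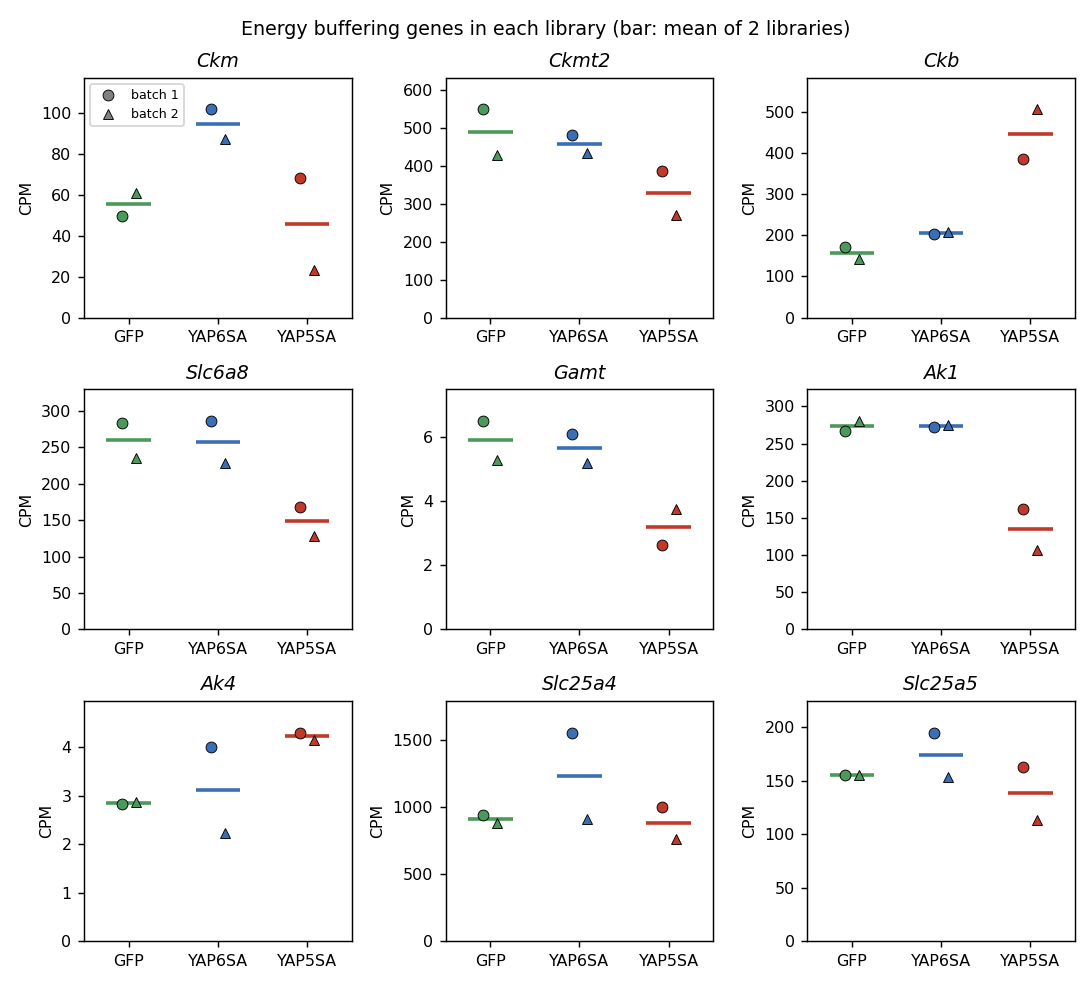
CPM of each of the 9 members by library, with circles for batch 1, triangles for batch 2 and a bar at the mean of the 2 libraries of a group. The YAP5SA libraries sit above all others for *Ckb* (386 and 506 CPM) and below all others for *Ak1*, *Slc6a8*, *Ckmt2* and *Gamt*.

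Among the creatine kinases, *Ckb* rose and *Ckmt2* fell in YAP5SA CMs. *Ckb* (ENSMUSG00000001270, GRCm38 chromosome 12, 111669361 to 111672338, minus strand), the brain-type cytosolic enzyme, stood at 171 and 143 CPM in GFP CMs (batch 1 first, as for all pairs of values), at 203 and 208 CPM in YAP6SA CMs and at 386 and 506 CPM in YAP5SA CMs. Both YAP5SA libraries lay above all others, and both YAP6SA libraries lay above both GFP libraries. *Ckb* was 2.83-fold higher in YAP5SA than in GFP CMs, a log2 fold change of 1.50 (SE 0.19, 95% interval 1.09 to 1.92, quasi-likelihood FDR 8.4e-04). The difference was 1.18 in the first batch and 1.83 in the second. Of all genes tested, 12.8% were called higher in this comparison. It was also called in all 17 alternative analyses, with log2 fold changes from 1.26 to 1.76, though the looser threshold of 0.1 could not remove a call. The log2 fold change in YAP6SA CMs was 0.39 (95% interval -0.02 to 0.80, FDR 0.842), with 0.25 and 0.54 in the batches, and was not past the threshold. Compared directly, *Ckb* was 2.16-fold higher in YAP5SA than in YAP6SA CMs (log2 fold change 1.11, SE 0.18, FDR 0.00424), where 14.7% of all genes were called in either direction. Without YAP6SA replicate 2 the value was 1.10 and the FDR 0.0752.

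*Ckmt2* (ENSMUSG00000021622, chromosome 13, 91853387 to 91876885, minus strand), which encodes the mitochondrial creatine kinase of striated muscle, had 549 and 428 CPM in the GFP, 480 and 434 in the YAP6SA, and 385 and 271 in the YAP5SA libraries. Both YAP5SA libraries were the lowest, and the GFP and YAP6SA libraries overlapped. The fitted level in YAP5SA CMs was 0.667 times that in GFP (log2 fold change -0.58, SE 0.17, quasi-likelihood FDR 0.0335), or -0.51 and -0.66 within the batches, where 9.18% of all genes were called lower. This call was lost in 8 of 17 alternatives, among them the fit without the replicate block (FDR 0.114) and the fit of only the 4 libraries compared (FDR 0.0763), with log2 fold changes from -0.71 to -0.45. Against YAP6SA, the log2 fold change was -0.50 (FDR 0.0746) and not called, and in YAP6SA against GFP it was -0.08 (95% interval -0.46 to 0.29, FDR 0.955). An antisense gene shares 84 of its exon bases.

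*Ckm* (ENSMUSG00000030399, chromosome 7, 19404776 to 19422841, plus strand), the muscle-type cytosolic enzyme, had 49.8 and 61.1 CPM in the GFP, 102 and 87.3 in the YAP6SA, and 68.6 and 23.5 in the YAP5SA libraries. The YAP6SA libraries were the highest, whereas the YAP5SA libraries lay on either side of the GFP libraries. In YAP6SA CMs, the log2 fold change of *Ckm* was 0.73 (SE 0.33, 95% interval -0.00201 to 1.47), or 1.03 and 0.51 within the batches, and it was not called (quasi-likelihood FDR 0.838). In the fit of only the 4 GFP and YAP6SA libraries it was 0.78 (FDR 0.00166), where 1.49% of all genes were called higher, and over the alternatives its FDR ran from 0.00166 to 1.00. With 1 GFP library left, the batch term rested on the YAP6SA and YAP5SA libraries alone. The log2 fold change of *Ckm* was then 0.22 without GFP replicate 1 and 1.39 without GFP replicate 2. It was also past the threshold without the filter on low counts (FDR 0.0209), and when either YAP5SA library was left out (FDR 0.00641 for replicate 1 and 0.00486 for replicate 2).
In YAP5SA against GFP CMs, *Ckm* had a log2 fold change of -0.40 (FDR 0.428), but the batches differed in sign, with 0.46 in batch 1 and -1.37 in batch 2. The value turned to 0.34 without YAP5SA replicate 2 and to 0.17 without GFP replicate 2, and was -1.24 (FDR 8.1e-05) without YAP5SA replicate 1. Compared with YAP6SA, *Ckm* was lower in YAP5SA CMs (log2 fold change -1.14, SE 0.34, quasi-likelihood FDR 0.0489), or -0.57 and -1.89 within the batches. That call lay close to the threshold and was lost in 7 of 17 alternatives, including DESeq2 (FDR 0.236), the fit without the replicate block (FDR 0.123) and the fit without YAP5SA replicate 2 (-0.44, FDR 0.168), and its size was -2.01 (FDR 6.3e-07) without YAP5SA replicate 1. The counts of *A930016O22Rik* moved with those of *Ckm*, at 286 and 243 in GFP, 672 and 516 in YAP6SA, and 319 and 83 in YAP5SA. Reads that touch exons of both genes are in neither count, and the effect of their loss on the *Ckm* values was not tested.

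Both members of creatine supply were lower in the YAP5SA libraries, and the transporter was called. The creatine gene *Gatm*, listed below and not a member, was higher there than in GFP, but was not called. *Slc6a8* (ENSMUSG00000019558, chromosome X, 73673150 to 73682502, plus strand), which carries creatine into the cell, had 283 and 236 CPM in the GFP, 287 and 229 in the YAP6SA, and 168 and 128 in the YAP5SA libraries. The YAP5SA libraries lay below all others, and the GFP and YAP6SA libraries overlapped. *Slc6a8* fell by 0.81 on the log2 scale in YAP5SA against GFP CMs (SE 0.15, quasi-likelihood FDR 0.00518), with within-batch differences of -0.75 and -0.88, and by 0.80 against YAP6SA (SE 0.15, FDR 0.00754). Without GFP replicate 2 the change against GFP was -0.77 with an FDR of 0.0759. The call against YAP6SA was lost without YAP6SA replicate 1 (FDR 0.0613) and without YAP6SA replicate 2 (FDR 0.120). In YAP6SA against GFP, its log2 fold change was -0.01 (95% interval -0.34 to 0.31, FDR 0.995).
*Gamt* (ENSMUSG00000020150, chromosome 10, 80258151 to 80261012, minus strand), which completes creatine synthesis and is weakly expressed here, had 6.52 and 5.29 CPM in the GFP, 6.10 and 5.21 in the YAP6SA, and 2.65 and 3.76 in the YAP5SA libraries. These are 40 to 124 counts a library, so the precision is low. Although the YAP5SA libraries were the lowest, the log2 fold change of -0.87 against GFP (SE 0.38, 95% interval -1.73 to -0.02) was not called (quasi-likelihood FDR 0.130), although its unadjusted p was under 0.05, nor was that of -0.81 against YAP6SA (FDR 0.182).

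The adenylate kinases differed from each other. *Ak1* (ENSMUSG00000026817, chromosome 2, 32621758 to 32635058, plus strand), the cytosolic form abundant in muscle, had 267 and 281 CPM in the GFP, 272 and 275 in the YAP6SA, and 162 and 107 in the YAP5SA libraries. The GFP and YAP6SA libraries were within a narrow span, and both YAP5SA libraries lay well below it. *Ak1* fell by 1.04 on the log2 scale against GFP (SE 0.19, 95% interval -1.47 to -0.62, quasi-likelihood FDR 0.00527), to 0.485 times the GFP level, or -0.72 and -1.39 within the batches. Against YAP6SA it also fell by 1.04 (SE 0.19, FDR 0.00723). The call against GFP was lost in 1 of 17 alternatives, without GFP replicate 2 (-0.86, FDR 0.0643), and that against YAP6SA in 1 of 17, without YAP6SA replicate 2 (-0.90, FDR 0.102). In YAP6SA against GFP CMs the log2 fold change was -0.00447 (95% interval -0.42 to 0.41, FDR 0.998).
*Ak4* (ENSMUSG00000028527, chromosome 4, 101419277 to 101466995, plus strand), a mitochondrial matrix form, was near the low end of the genes tested, with 2.84 and 2.87 CPM in the GFP, 4.02 and 2.24 in the YAP6SA, and 4.31 and 4.15 in the YAP5SA libraries. The counts were 37 to 79 a library, and both YAP5SA libraries lay just above all others. Its log2 fold change in YAP5SA was 0.57 (95% interval -0.38 to 1.52, FDR 0.372) and in YAP6SA CMs 0.11 (95% interval -0.85 to 1.07, FDR 0.981). The interval for YAP5SA includes both no change and a 2.86-fold increase, so no change was detectable at this depth.

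The ADP/ATP carriers were not called in any comparison. *Slc25a4* (ENSMUSG00000031633, chromosome 8, 46206797 to 46211284, minus strand), the carrier of heart and skeletal muscle, had 944 and 881 CPM in the GFP, 1557 and 910 in the YAP6SA, and 1006 and 763 in the YAP5SA libraries. YAP6SA replicate 1 stood apart from the other libraries, and the groups overlapped. The log2 fold change in YAP6SA was 0.39 (95% interval -0.07 to 0.85, quasi-likelihood FDR 0.854). It was 0.72 within batch 1, 0.05 within batch 2, and 0.12 when YAP6SA replicate 1 was left out. In YAP5SA against GFP it was -0.07 (95% interval -0.52 to 0.39, FDR 0.846).
*Slc25a5* (ENSMUSG00000016319, chromosome X, 36795651 to 36798807, plus strand), the carrier of many proliferating and nonmuscle cells, had 155 and 155 CPM in the GFP, 195 and 153 in the YAP6SA, and 163 and 114 in the YAP5SA libraries. All 3 groups overlapped. Its log2 fold changes against GFP were 0.15 in YAP6SA (95% interval -0.22 to 0.52, FDR 0.929) and -0.19 in YAP5SA CMs (95% interval -0.56 to 0.17, FDR 0.433). In YAP5SA against YAP6SA, the log2 fold changes of *Slc25a4* and *Slc25a5* were -0.45 and -0.34 (quasi-likelihood FDR 0.167 and 0.189). A processed pseudogene named after *Slc25a5* had 29 counts over all libraries, and reads that fit several places were not counted.

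**Figure D2:**
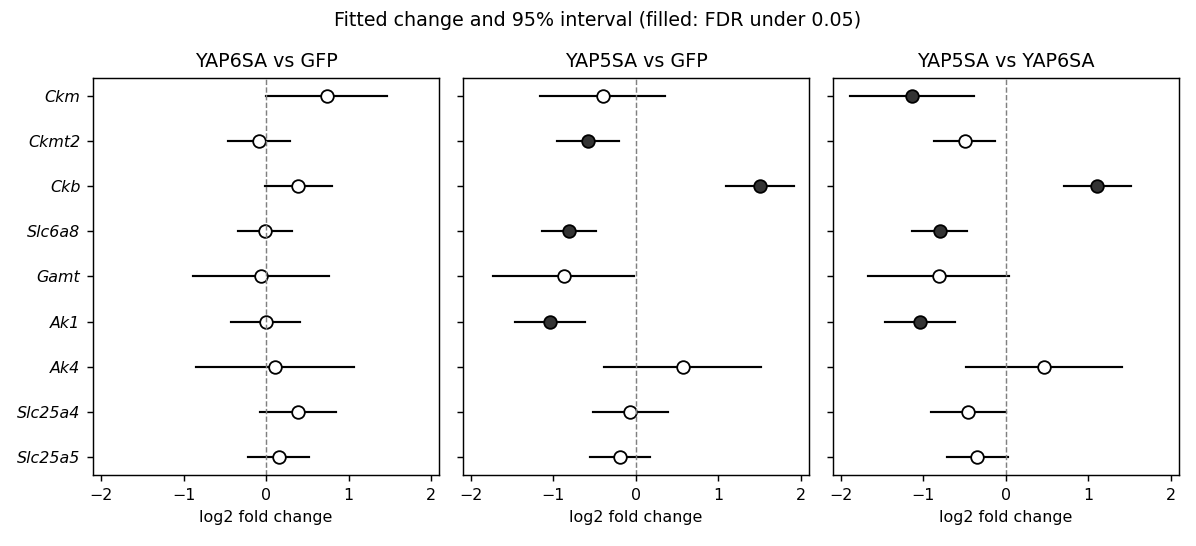
Fitted log2 fold change of each member in the 3 comparisons, with its 95% interval and a filled point where the FDR is under 0.05. No point is filled for YAP6SA against GFP, whereas *Ckb* is to the right and *Ckmt2*, *Slc6a8* and *Ak1* are to the left for YAP5SA against GFP.

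Over the 9 members, 1 was called higher and 3 were called lower in YAP5SA against GFP CMs, where 12.8% and 9.18% of all genes tested were called. The median log2 fold change of the members was -0.40, and that of all genes was -0.00314. The CPM ranges of both groups did not overlap for 6 of the 9 members, as was the case for 60.9% of all genes, so this count is close to the background. The same 2 numbers of calls, 1 higher and 3 lower, were found in YAP5SA against YAP6SA, with *Ckm* in place of *Ckmt2* among the lower genes, and with a median of -0.50 against -0.01 over all genes. These 4 of 9 members stand beside 14.7% of all genes, of which 1199 were higher and 757 lower. The members were chosen with earlier results of these data known, so these shares do not measure enrichment. Both comparisons share the YAP5SA libraries. The number called lower against GFP was 2 without GFP replicate 1, without either YAP6SA library and without YAP5SA replicate 2, 0 without GFP replicate 2 and 4 without YAP5SA replicate 1. Against YAP6SA, 3 were called lower without either GFP library, 1 without YAP6SA replicate 1, 0 without YAP6SA replicate 2, and 5 and 2 when YAP5SA replicates 1 and 2 were left out.

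In YAP6SA against GFP CMs, 0 of the 9 members were called by edgeR's quasi-likelihood test, and 0.0450% of all genes were. At an unadjusted p under 0.05 the count was 0 as well, and DESeq2 and limma-voom called 0. In the fit of only the 4 libraries compared, 1 was called, *Ckm*, where 1.49% of all genes were called higher. The median log2 fold change of the 9 members in the main fit was 0.11, beside 0.00179 over all genes. The ranges of *Ckm* and *Ckb* did not overlap between these groups, which are 2 of 9 members, and 34.3% of all genes did not overlap.
When both group terms were tested jointly, *Ckb* (FDR 0.00114), *Slc6a8* (FDR 0.00794) and *Ak1* (FDR 0.00818) were called, as were 17.6% of all genes. None of the members was called for the batch term in the quasi-likelihood test, which called 0.203% of all genes, and the lowest batch FDR among the members was 0.322, for *Slc6a8*.

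Merged exons came to 2913 bases for *Ckm*, 2895 for *Ckb* and 1486 for *Ckmt2*, and the absolute shares below depend on these lengths. The mix of creatine kinase transcripts is given as the share of each in their summed RPKM. *Ckb* made up 13.2% and 13.8% of it in GFP CMs, 16.4% and 18.3% in YAP6SA CMs, and 32.0% and 47.9% in YAP5SA CMs. The share of *Ckmt2* was 82.9% and 80.4% in GFP, 75.4% and 74.1% in YAP6SA, and 62.3% and 49.9% in YAP5SA CMs. Both shares were ordered without overlap, with YAP6SA between the other groups. The shares are parts of the same sum, so these orders are not independent. Between GFP and YAP6SA the CPM of *Ckmt2* overlapped, and none of the 3 kinases was called in the quasi-likelihood fit of all 6 libraries. *Ckm* held 2.21% to 8.19%, a share that is not interpreted because of its shared exons. The summed RPKM of the 3 kinases was 446 and 358 in the GFP, 428 and 394 in the YAP6SA, and 416 and 365 in the YAP5SA libraries, and these ranges overlapped.
Ratios with *Ckm* carry the same limit from its shared exons and are given as a description. The log2 ratio of *Ckm* to *Ckb* per kilobase was -1.79 and -1.23 in the GFP, -1.0 and -1.26 in the YAP6SA, and -2.50 and -4.44 in the YAP5SA libraries. Its mean differed by -1.96 on the log2 scale in YAP5SA from GFP CMs, with -0.72 and -3.20 in the batches and -0.99 without YAP5SA replicate 2. The exact permutation test gave p = 0.333 (two-sided), the smallest that 2 libraries against 2 allow, so this ratio could not pass a threshold of 0.05.
Among the carriers, *Slc25a4* accounted for 79.9% to 84.8% of their summed RPKM over all 6 libraries, with the highest share in YAP6SA replicate 1, and its log2 ratio to *Slc25a5* differed from GFP by 0.23 in YAP6SA and 0.13 in YAP5SA CMs (exact permutation p = 0.667 and 0.333). The log2 ratio of *Ak1* to *Ak4* was 7.40 and 7.45 in GFP, 6.92 and 7.78 in YAP6SA and 6.08 and 5.53 in YAP5SA CMs, a mean difference from GFP of -1.62 in YAP5SA CMs (exact permutation p = 0.333).

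**Figure D3:**
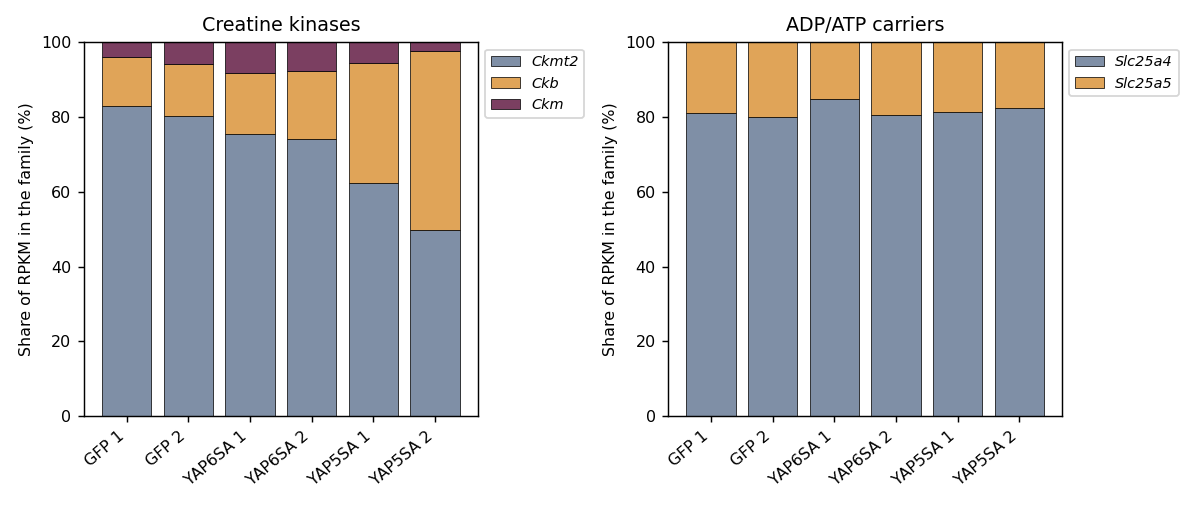
Share of each creatine kinase (left) and each ADP/ATP carrier (right) in the summed RPKM of its family, in percent, with 1 bar for each library. The *Ckb* segment widens from 13.2% and 13.8% in GFP to 32.0% and 47.9% in YAP5SA, and the *Slc25a4* segment spans 79.9% to 84.8%.

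Of 34 other genes of high-energy phosphate metabolism, 27 were tested, and 3 were called higher and 6 lower in YAP5SA against GFP CMs. Over all genes tested 12.8% were called higher and 9.18% lower, so the share called higher is near the background. The median of the 27 log2 fold changes was -0.11, and that of all genes -0.00314. In YAP6SA against GFP CMs 0 of the 27 were called in the quasi-likelihood test, by DESeq2 or by limma-voom, 1 was called in the 4-library fit (*Prkab2*, FDR 0.0280), and 3 (*Slc25a25*, *Vdac1* and *Prkab2*) had an unadjusted p under 0.05, with log2 fold changes of 0.81, 0.35 and 0.56. YAP5SA against YAP6SA had 2 called higher and 4 lower, together 6 of 27, beside 14.7% of all genes.
The AMP and purine nucleotide cycle genes had the most calls, with 1 higher and 3 lower among 6 tested in YAP5SA against GFP. AMP deaminases convert AMP to IMP, and 2 of its isoforms moved in opposite directions. *Ampd2*, the form of many nonmuscle tissues, had 79.6 and 87.9 CPM in the GFP, 63.8 and 84.3 in the YAP6SA, and 161 and 234 in the YAP5SA libraries, and rose by a log2 fold change of 1.22 (SE 0.16, quasi-likelihood FDR 9.8e-04). *Ampd3* had 127 and 85.5 CPM in GFP, 88.4 and 94.6 in YAP6SA, and 63.6 and 41.7 in YAP5SA, and its log2 fold change was -1.01 (FDR 0.00596). *Adssl1*, the muscle form of adenylosuccinate synthase, which starts the return from IMP to AMP, fell by 1.12 on the log2 scale (FDR 0.0051), and *Adsl*, which completes it, fell by 0.57 (FDR 0.0204). *Ampd2*, *Ampd3* and *Adssl1* were also called against YAP6SA in the same directions, with log2 fold changes of 1.41, -0.84 and -1.02.
Subunits of AMPK, the kinase that senses AMP, were called in both directions. The beta subunits were called in opposite directions in YAP5SA against GFP, at -0.67 for *Prkab1* (FDR 0.0112) and 0.83 for *Prkab2* (FDR 0.0164), and the gamma subunit *Prkag1* was at -0.65 (FDR 0.0163). Its catalytic subunits had log2 fold changes of 0.12 for *Prkaa1* (FDR 0.698) and -0.02 for *Prkaa2* (FDR 0.954). *Prkag1* (-0.68) and *Prkag3* (0.85) were called in YAP5SA against YAP6SA.
Among the other mitochondrial carriers, both called genes encode ATP-Mg/phosphate carriers. *Slc25a25* had 15.7 and 20.2 CPM in the GFP and 53.8 and 62.3 in the YAP5SA libraries and rose by a log2 fold change of 1.70 (SE 0.30, quasi-likelihood FDR 0.00488), whereas *Slc25a23* fell by 0.77 (FDR 0.0325). The phosphate carrier *Slc25a3* was at -0.20 (FDR 0.509), and *Vdac1*, a pore of the outer membrane, was called only in YAP5SA against YAP6SA (-0.59, FDR 0.0325).
The adenylate kinases *Ak3* and *Ak6* and the creatine genes *Gatm* and *Slc16a12* were not called in any comparison. *Gatm* had 5.47 and 5.42 CPM in the GFP and 8.15 and 8.86 in the YAP5SA libraries, and *Slc16a12* overlapped between these groups. *Ckmt1*, the mitochondrial creatine kinase of other tissues, did not pass the filter, with 39 and 6 counts in the GFP, 10 and 2 in the YAP6SA, and 0 and 1 in the YAP5SA libraries. The 6 genes called lower in YAP5SA against GFP came down to 1 without either GFP library and to 4 without YAP5SA replicate 2, and the 3 called higher went to 2 without GFP replicate 2 or YAP5SA replicate 2 and to 5 without YAP5SA replicate 1. Against YAP6SA, the 2 called higher went to 1 without YAP6SA replicate 2 or YAP5SA replicate 2 and to 6 without YAP5SA replicate 1, and the 4 called lower went to 0 without YAP6SA replicate 2, 2 without YAP5SA replicate 2 and 7 without YAP5SA replicate 1.

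**Figure D4:**
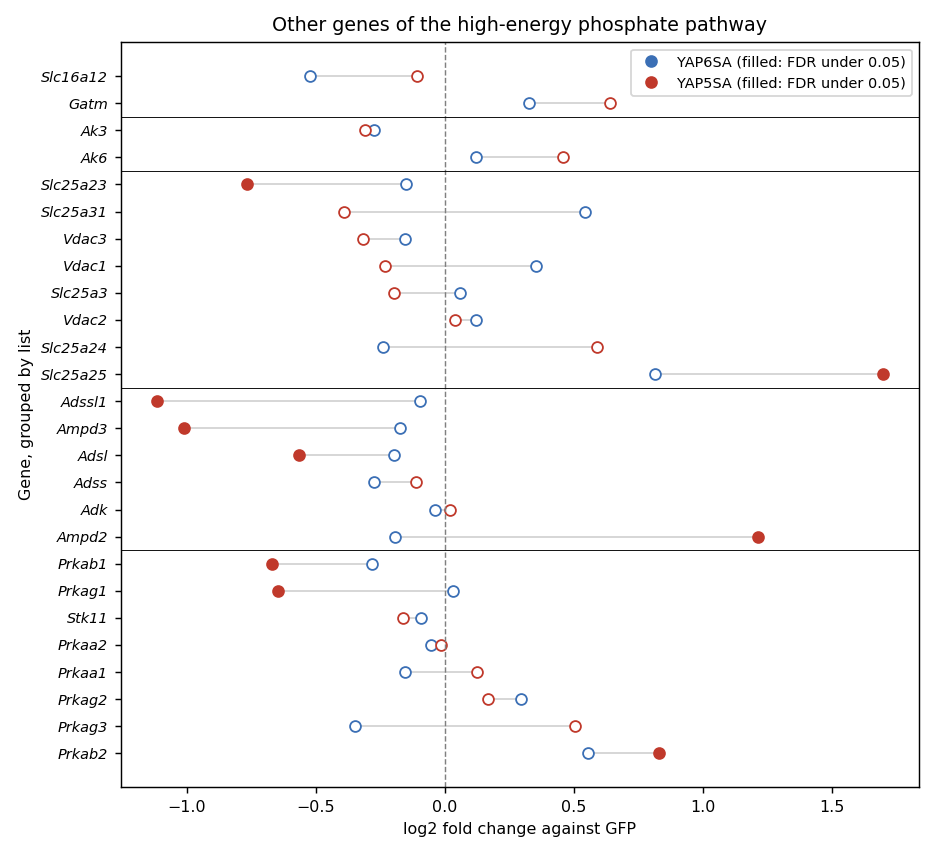
Log2 fold change against GFP of other energy metabolism genes tested, in YAP6SA (blue) and YAP5SA CMs (red), grouped by list and filled where the FDR is under 0.05. Filled points occur for YAP5SA alone, 3 to the right and 6 to the left, from -1.12 for *Adssl1* to 1.70 for *Slc25a25*.

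Markers of other states and cells also differed between the groups. The summed level of 8 CM markers was 43459 to 62491 CPM in the GFP and YAP6SA libraries, and 38070 and 27221 CPM in the YAP5SA libraries, with 2 called lower (*Ryr2* and *Pln*) and 1 higher (*Nppa*) in YAP5SA against GFP. In such bulk samples, fewer nuclei of a type and less RNA per nucleus cannot be told apart. The 12 skeletal muscle markers summed to 4.89 to 6.92 CPM in GFP and YAP6SA CMs, against 75.7 and 159 CPM in YAP5SA CMs. Of the 5 that were tested, *Myh1*, *Myh2* and *Myh8* were called higher in YAP5SA against GFP, while *Tnnt3* and *Tnni2* were not called. At 8.41 and 28.0, 23.0 and 58.3, and 35.5 and 65.6 CPM, these 3 myosins made up most of the YAP5SA sums. Among the markers not tested, *Myog* had 0 counts in every GFP and YAP6SA library but 19 and 52 with YAP5SA. *Myod1*, *Myh4* and *Tnnc2* had 0 counts in all libraries, which allows up to 3 counts in each. All 7 cell cycle markers were called higher in YAP5SA against GFP, and summed to 107 to 136 CPM in the GFP and YAP6SA libraries and to 346 and 499 CPM in the YAP5SA libraries. Of 8 fibroblast and 8 endothelial markers, 0 were called in YAP5SA against GFP by the quasi-likelihood test, with 3 and 0 at an unadjusted p under 0.05. The fibroblast markers summed to 860 to 1777 CPM and the endothelial markers to 488 to 744 CPM, with the higher values in batch 1. Of the 7 macrophage markers tested, 2 were called higher, and the 8 listed summed to 65.9 to 110 CPM in the GFP and YAP6SA libraries and to 95.5 and 141 CPM in YAP5SA. The 7 smooth muscle and mural markers had 1 called in each direction, with sums of 512 to 595 CPM against 450 and 353 CPM, and of the 2 erythroid markers tested 0 were called. What part any of these has in the values of the members was not tested.

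Across the 6 libraries, the genes whose log2 CPM followed a member most closely were *Tmem248* for *Ckb* (Pearson's r 0.998), *Hpgd* for *Ckmt2* (r 0.999), *A930016O22Rik* for *Ckm* (r 0.993), *Mmachc* for *Slc6a8* (r 0.996), *Tbc1d22b* for *Ak1* (r 0.998) and *Mul1* for *Slc25a4* (r 0.994, behind *Gm26981*). *Slc25a5* was nearest to *Tstd3* (r 0.995), *Gamt* to *Coa5* (r 0.993) and *Ak4* to *Trib3* (r 0.991). These are the highest of 13314 genes over only 6 libraries that share 3 groups and 2 batches, and they are given as a description.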

How the data were processed

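Poly-A RNA of nuclei bound by an antibody to PCM-1 was sequenced from non-directional libraries. Alignment by the authors used STAR and mm10 (Ensembl GRCm38.94), and they deposited raw read counts per gene, without normalization or a filter. STAR's version is not given in the sources used here. Unmapped, multimapping, no-feature and ambiguous reads (5.79% to 6.31% of reads for the last) stayed out of library sizes. Names, coordinates and exon lengths came from GENCODE M21 of GRCm38, which named 54409 of 54532 IDs, and promoters from RefSeq, with windows for 8 of the 9 members.

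Genes were kept at a median log2 CPM above 1 in at least 1 group, as in the study's methods, which left 13323 genes. TMM-scaled counts were fitted with edgeR 4.0.16 in R 4.3.3 (quasi-likelihood test, terms for batch and group, all 6 libraries). P-values were adjusted by Benjamini-Hochberg across the genes tested (FDR), and genes under 0.05 were called. SE is the log2 fold change divided by the square root of F, and the 95% intervals use the moderated degrees of freedom. Batch values are differences of log2(CPM + 0.1). RPKM divides TMM-scaled CPM by the length of the merged exons of all annotated transcripts. The replicate number is the batch number in the labels and pairs the libraries. Deviations from group means within a batch correlated at 0.368, 0.0985 and 0.175. Alternatives used RLE or upper quartile scaling, other filters, the likelihood ratio test, DESeq2 1.42.0, limma-voom (limma 3.58.1), no batch term, fits of 4 libraries, thresholds of 0.01 and 0.1, and each library left out. With 1 library left in a group, that library is assumed to vary like the others. The limit for 0 counts covers counting error only. The pipeline was tested on simulated data.

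The members and gene lists were chosen with earlier results of these data known. Named genes are all members, listed genes called in a comparison (at most 10 by FDR), *Yap1*, markers as lists, and for each member the genes with the highest Pearson's r. Exceptions, chosen after their values were seen, are *A930016O22Rik* as the antisense gene, listed genes that were not called, and the 3 listed genes with an unadjusted p under 0.05 in YAP6SA. 1 listed gene is not reported here by name, and the counts over the lists include it.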

Additional observations from a re-analysis of the deposited data

How the results depend on the processing

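The calls of *Ckb* in YAP5SA against GFP held in all 17 alternatives, and those of *Slc6a8* and *Ak1* in 16 of 17 each. Without a filter on low counts or in the 4-library fit, 1 member (*Ckm*) and 1 other energy gene (*Slc25a25* without the filter, *Prkab2* with 4 libraries) reached the threshold in YAP6SA, both higher. At a threshold of 0.01, the other energy genes called lower in YAP5SA against GFP numbered 2, and those called against YAP6SA numbered 1 higher and 1 lower. Without the replicate block, 2 other energy genes were called lower in YAP5SA against YAP6SA, and besides *Ckmt2* against GFP and *Ckm* against YAP6SA no member lost or gained a call. With 1 library left out, 1 degree of freedom remained for the spread, so fewer calls can follow from the smaller fit. The members called then ran from 0 to 1 higher in YAP6SA, from 0 to 4 lower in YAP5SA against GFP, and from 0 to 1 higher and 0 to 5 lower against YAP6SA. The other energy genes ran from 0 to 1 higher in YAP6SA, from 2 to 5 higher and 1 to 6 lower in YAP5SA against GFP, and from 1 to 6 higher and 0 to 7 lower against YAP6SA.

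The log2 difference in the ratio of *Ckm* to *Ckb* ran from -2.93 to -0.99 (YAP5SA against GFP) and from -3.30 to -1.37 (against YAP6SA) when 1 library was left out. That of *Ckm* to *Ckmt2* ran from -0.39 to 0.64 and from -1.25 to -0.22. That of *Slc25a4* to *Slc25a5* ran from 0.013 to 0.44 in YAP6SA against GFP and from -0.31 to 0.12 in YAP5SA against YAP6SA, and that of *Ak1* to *Ak4* from -0.50 to 0.35 and from -1.97 to -1.12. Exon length cancels in these differences, so leaving out the division by length could not change them.

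Some log2 fold changes changed sign in an alternative. None of these was called as reported or where its sign had changed, but *Ckm* in YAP5SA against GFP was called at -1.24 without YAP5SA replicate 1 (FDR 8.1e-05). With 1 library left out, YAP6SA against GFP ran from -0.23 to 0.057 for *Ckmt2*, from -0.063 to 0.033 for *Slc6a8*, from -0.26 to 0.16 for *Gamt* (0.08 without YAP6SA replicate 2), from -0.18 to 0.19 for *Ak1* (0.13 without YAP6SA replicate 1), from -0.34 to 0.48 for *Ak4* (-0.13 without GFP replicate 1) and from -0.060 to 0.37 for *Slc25a5*. *Ak1* was also at 0.00452 with upper quartile scaling and at 0.00443 in the 4-library fit. YAP5SA against GFP ran from -1.24 to 0.34 for *Ckm* (0.17 without GFP replicate 2), from -0.29 to 0.19 for *Slc25a4* and from -0.39 to 0.024 for *Slc25a5*. The cause of these shifts was not tested. Depth limits *Gamt* and *Ak4*, at 37 to 124 counts a library, and groups of 2 libraries limit every comparison.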
